A study of Mus musculus with 4 samples.

Results

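The Kruppel-like factors (KLFs) are zinc finger proteins that bind CACCC boxes and other GC-rich DNA and either activate or repress transcription. The 10 family members described here, Klf2, Klf3, Klf4, Klf5, Klf6, Klf7, Klf9, Klf10, Klf11 and Klf13, were taken by gene name from the array's design, and 10 of the 10 were among the 23520 features that passed the filter on dim probes. They were measured by 19 probes in RNA from tumours that implanted 4T1 cells, a mouse mammary carcinoma line, had formed in BALB/C mice given no treatment. Tumour cells had been sorted with the ALDEFLUOR kit, in which aldehyde dehydrogenase (ALDH) turns a substrate into a fluorescent product. The groups were ALDH-high cells at zeitgeber time ZT12 (12 h after lights on), ALDH-low cells at ZT12, ALDH-high cells at ZT0 and ALDH-low cells at ZT0, with 1 one-colour Agilent array for each. No value has a replicate, the sources used here do not say how many mice gave each fraction, and the differences below are between single arrays.

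The family falls into classes by the partners its members recruit. Klf2, Klf4, Klf5, Klf6 and Klf7 carry activation domains, and several are switched on quickly by serum, flow or stress. Klf3 recruits the corepressor CtBP. Klf9, Klf10, Klf11 and Klf13 recruit the SIN3A corepressor, Klf10 and Klf11 as early targets of TGF-beta. In blood cells Klf2 maintains quiescence and guides lymphocyte traffic, and in epithelia Klf4 and Klf5 balance differentiation against proliferation. Klf9 is known as an output of glucocorticoid signalling, and Klf9 and Klf10 as outputs of the circadian clock.

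The bases before the annotated start are shown for the members with wide differences between arrays (Klf2, Klf6 and Klf3) and for Klf4, whose differences were small. These are the 250 bases before each start from RefSeq (build GRCm38.p6), 5′ to 3′ on the gene's own strand, at chr8:72318812-72319061 (plus strand) for Klf2, chr13:5861239-5861488 (plus strand) for Klf6, chr5:64803271-64803520 (plus strand) for Klf3 and chr4:55532476-55532725 (minus strand) for Klf4. Capitals mark CACCC, the GC box GGGCGG and the E-box CACGTG on either strand, and matches may share bases.
Klf2: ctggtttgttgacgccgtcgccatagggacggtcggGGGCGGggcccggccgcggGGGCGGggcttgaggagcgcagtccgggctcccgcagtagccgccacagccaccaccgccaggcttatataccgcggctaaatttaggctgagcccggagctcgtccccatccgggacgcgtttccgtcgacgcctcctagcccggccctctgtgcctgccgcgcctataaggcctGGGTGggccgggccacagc
Klf6: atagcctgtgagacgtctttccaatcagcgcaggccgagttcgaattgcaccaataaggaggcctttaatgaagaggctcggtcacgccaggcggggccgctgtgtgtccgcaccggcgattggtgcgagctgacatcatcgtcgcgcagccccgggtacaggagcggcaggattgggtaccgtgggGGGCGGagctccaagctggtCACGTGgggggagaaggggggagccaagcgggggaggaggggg
Klf3: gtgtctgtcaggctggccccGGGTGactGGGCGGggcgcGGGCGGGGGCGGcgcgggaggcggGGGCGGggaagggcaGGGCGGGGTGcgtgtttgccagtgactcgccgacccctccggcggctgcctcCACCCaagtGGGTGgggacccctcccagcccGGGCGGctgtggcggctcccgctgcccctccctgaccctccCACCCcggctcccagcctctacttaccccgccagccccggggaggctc
Klf4: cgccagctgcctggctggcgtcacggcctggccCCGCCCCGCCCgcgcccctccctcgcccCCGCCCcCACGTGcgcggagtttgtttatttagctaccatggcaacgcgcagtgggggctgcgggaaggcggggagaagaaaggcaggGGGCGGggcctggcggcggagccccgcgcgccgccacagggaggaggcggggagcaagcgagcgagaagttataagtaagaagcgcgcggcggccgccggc
Of the 10 members, 8 had a window in the table (Klf5 and Klf10 had none). GGGCGG was found in 7 of the 8 windows, against 32.7% of 32851 windows of the same length, and CACCC in 5 of the 8, against 52.0%. The member windows ran from 59.2% to 78.4% GC and the median over all windows was 52.4%. The E-box CACGTG, the word that the clock proteins BMAL1 and CLOCK bind, was in 3 of the 8 windows (6.02% of all windows). It began 182 bases before the start of Klf4, 43 bases before that of Klf6 and 214 bases before that of Klf11. The forkhead word GTAAACA was in 1 window, that of Klf9, 100 bases before the start (3.17% of all windows). The cAMP response element TGACGTCA (1.55% of all windows), the AP-1 site TGACTCA (4.46%), the MEF2 word CTATTTATA (0.387%) and the CArG box (1.47%) were in 0 of the 8. A match is a match of letters alone.

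Signals are given as multiples of the 75th percentile of the processed signal on the same array, and differences are on the log2 scale, so that 1 log2 unit is 2-fold, the size counted here. The percentile was 156.3 on the ZT12 ALDH-high array, 458.8 on ZT12 ALDH-low, 300.6 on ZT0 ALDH-high and 213.6 on ZT0 ALDH-low. Of 59305 spots that were not controls, between 55.8% and 60.6% were well above background on each array, and 0 were saturated. Slide 2 carried the ZT12 arrays and slide 1 the ZT0 arrays, and slide and time cannot be told apart. ZT12 ALDH-high and ZT0 ALDH-low were hybridised at position 1_1 of their slides, while ZT12 ALDH-low and ZT0 ALDH-high were at position 1_2. Spike-in slopes were 0.789 (ZT12 ALDH-high) and 0.873 (ZT0 ALDH-low) at position 1_1, both marked for evaluation by the scanner software, and 0.944 (ZT12 ALDH-low) and 0.956 (ZT0 ALDH-high) at position 1_2. Each ALDH difference at one time therefore sets an array of one position against an array of the other, and none can be had without a marked array. The cells are named 4T1 in the labels, but 5 of 5 pan-leukocyte genes were well above background on all 4 arrays, as were 12 of 14 epithelial markers. In a sorted bulk sample, fewer cells of a type and less RNA per cell cannot be told apart.

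Most of the 10 members gave one pattern: lower signal in ALDH-high than in ALDH-low cells at ZT12, and higher signal in ALDH-high than in ALDH-low cells at ZT0. Klf2, Klf3, Klf5, Klf6, Klf7, Klf10 and Klf13 were at least 2-fold lower at ZT12 and at least 2-fold higher at ZT0, which is 7 of 10 members. Over all 23520 features, 14.0% had that pattern and 20.0% had the opposite one, which 0 members had. With each array scaled by its median in place of the 75th percentile, 7 members and 25.6% of features had the pattern, and 0 members and 10.3% of features the opposite. Differences past 2-fold in the same direction at both times were rare: 0 members and 0.166% of features were lower at both, and 0 members and 0.106% of features higher at both. At ZT12 alone, 7 members were at least 2-fold lower (16.1% of features) and 0 higher (31.0% of features). At ZT0 alone, 8 members were at least 2-fold higher (19.4% of features) and 0 lower (31.2%). The median of the 10 members, with bounds included, was -1.62 at ZT12, against 0.19 over all features, and 1.83 at ZT0, against -0.31 over all features.

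**Figure D1:**
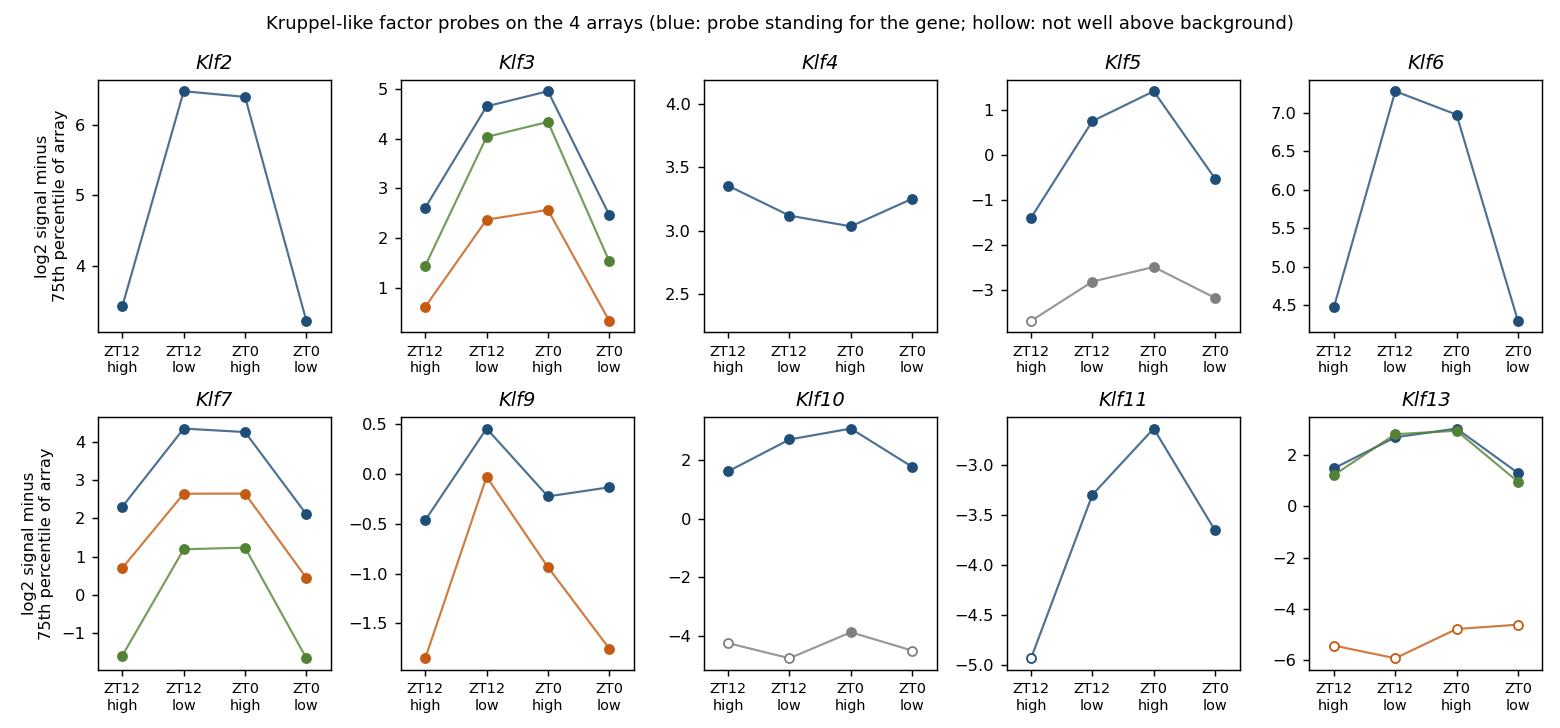
Levels of the 19 member probes on the 4 arrays (high and low are ALDH fractions), on the log2 scale relative to the array's 75th percentile, with 1 panel per gene and its own vertical scale. Blue is the probe that stands for the gene, other colours are its other probes, hollow points were not well above background, and lines join points of one probe. In 7 genes the blue points were higher on ZT12 ALDH-low and ZT0 ALDH-high than on the other 2 arrays by at least 0.93 log2 units, and Klf4 was nearly level.

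Klf2, which holds T cells and endothelium in a quiescent state, had the widest range of the members. Its signal was 10.8 times the array's 75th percentile in ZT12 ALDH-high cells and 89.2 times in ZT12 ALDH-low cells. At ZT0 it was 84.4 times in ALDH-high cells and 9.32 times in ALDH-low cells. ALDH-high cells thus stood 8.27-fold below ALDH-low cells at ZT12 (-3.05 log2) and 9.06-fold above them at ZT0 (3.18). The single Klf2 probe lay on chromosome 8 at 74845137-74845196 in build mm9, the build of all probe positions here.

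Klf6, a stress-induced activator whose GC box and E-box are marked in its sequence above, followed Klf2 in size. Signals were 22.2 times the 75th percentile in ZT12 ALDH-high cells against 155.8 times in ZT12 ALDH-low cells. They were 126.1 times in ZT0 ALDH-high cells against 19.6 times in ZT0 ALDH-low cells. The differences were -2.81 log2 (7.01-fold lower) at ZT12 and 2.68 (6.42-fold higher) at ZT0, from 1 probe on chromosome 13 at 5869371-5869430. The ZT12 ALDH-low and ZT0 ALDH-high arrays were again the high pair.

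Klf7, an activator best known in neurons, was read by 3 probes that gave the same 2 signs. The brightest (chromosome 1, 64082265-64082324) read 4.95 times the 75th percentile in ZT12 ALDH-high cells, 20.4 in ZT12 ALDH-low cells, 19.1 in ZT0 ALDH-high cells and 4.31 in ZT0 ALDH-low cells. Its differences were -2.04 at ZT12 and 2.15 at ZT0. The other probes gave -1.94 and 2.20 (at 64080138-64080197) and -2.78 and 2.89 (at 64167512-64167571). All 3 probes were past 2-fold at both times.

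Klf5, which drives proliferation in epithelial cells, had a dim and a brighter probe. The brighter one covers an exon junction, since its 60 bases span 9733 bases of chromosome 14 (99702656-99712388). It gave 0.383 times the 75th percentile in ZT12 ALDH-high cells and 1.70 in ZT12 ALDH-low cells, then 2.69 in ZT0 ALDH-high cells and 0.700 in ZT0 ALDH-low cells. The differences were -2.15 and 1.94. The dim probe, at 99704137-99704196, was not well above background in ZT12 ALDH-high cells, where ALDH-high was at least 1.51-fold lower, and its difference at ZT0 was 0.69, so both of its values stayed under 2-fold. With the mean of both probes Klf5 was still past 2-fold at both times (-1.51 and 1.31).

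Klf4, a regulator of epithelial differentiation and a reprogramming factor, stood apart from the other activators. It read 10.2 times the 75th percentile in ZT12 ALDH-high cells and 8.69 in ZT12 ALDH-low cells, then 8.19 in ZT0 ALDH-high cells and 9.53 in ZT0 ALDH-low cells. With this scaling the 4 values lie within 1.25-fold of each other. Klf4 differences were 0.24 at ZT12 and -0.22 at ZT0. They were wider after quantile normalization (0.66 and -0.82) and in the authors' deposited series table (0.68 and -0.83). They took the opposite signs under median scaling (-0.64 and 0.27), and at ZT12 also with another background correction (-0.03), so no direction can be given. Its 1 probe is on chromosome 4 at 55540833-55540892.

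Klf3, the CtBP-recruiting repressor, was read by 3 probes with the same signs. The brightest, at 65221309-65221368 on chromosome 5, gave 6.11 times the 75th percentile in ZT12 ALDH-high cells against 25.2 in ZT12 ALDH-low cells. At ZT0 it gave 31.1 times in ALDH-high cells against 5.52 in ALDH-low cells. The differences were -2.04 and 2.49. A probe across a junction that spans 581 bases (65213568-65214148) gave -1.75 and 2.24, and the remaining one gave -2.60 and 2.81 (65223991-65224050).

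Of the 4 SIN3A-recruiting members, Klf13 and Klf10 had this pattern. Klf13, an activator of chemokine genes in T cells, read 2.78 times the 75th percentile in ZT12 ALDH-high cells, 6.43 in ZT12 ALDH-low cells, 8.13 in ZT0 ALDH-high cells and 2.46 in ZT0 ALDH-low cells. The differences of this probe (chromosome 7, 71082854-71082913) were -1.21 and 1.73. A second bright probe assigned to Klf13 gave -1.59 and 1.98, but its position, 71032482-71032541, is given on the opposite strand. Another, across a junction that spans 32932 bases, was well above background on 0 of 4 arrays. Klf10, the TGF-beta inducible early gene, read 3.09 times in ZT12 ALDH-high cells, 6.58 in ZT12 ALDH-low cells, 8.52 in ZT0 ALDH-high cells and 3.44 in ZT0 ALDH-low cells. The differences of -1.09 and 1.31 came from a probe at 38224255-38224314 on chromosome 15, and another probe was well above background on 1 array. Quantile normalization took Klf10 under 2-fold at both times (-0.70 and 0.83) and Klf13 under it at ZT12 (-0.85), as did the authors' deposited series table (-0.72 and 0.85 for Klf10, and -0.88 for Klf13 at ZT12).

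Klf9, a glucocorticoid-induced repressor, had probes that disagreed in sign at ZT0. The brighter probe, at 23240410-23240469 on chromosome 19, read 0.726 times the 75th percentile in ZT12 ALDH-high cells and 1.37 in ZT12 ALDH-low cells, then 0.857 in ZT0 ALDH-high cells and 0.913 in ZT0 ALDH-low cells. One array, ZT12 ALDH-low, was thus the highest, and the differences were -0.92 at ZT12 and -0.09 at ZT0, with 0.39 at ZT0 under median scaling. The other probe, at 23242324-23242383, read 0.278 times in ZT12 ALDH-high cells, 0.982 in ZT12 ALDH-low cells, 0.524 in ZT0 ALDH-high cells and 0.297 in ZT0 ALDH-low cells, with differences of -1.82 and 0.82. The mean of the probes was past 2-fold at ZT12 (-1.37) and not at ZT0 (0.36). Klf11, the close relative of Klf10, was not well above background in ZT12 ALDH-high cells, the 1 gap among the members. Its signal was 0.102 times the 75th percentile in ZT12 ALDH-low cells, 0.161 in ZT0 ALDH-high cells and 0.0797 in ZT0 ALDH-low cells. At ZT0 ALDH-high cells were 2.03-fold higher (1.02), and at ZT12 they were at least 1.08-fold lower. The Klf11 value at ZT0 was 0.08 with the other background correction and 1.57 after quantile normalization, so its side of 2-fold depends on the processing. The probe lies on chromosome 12 at 25347324-25347383.

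**Figure D2:**
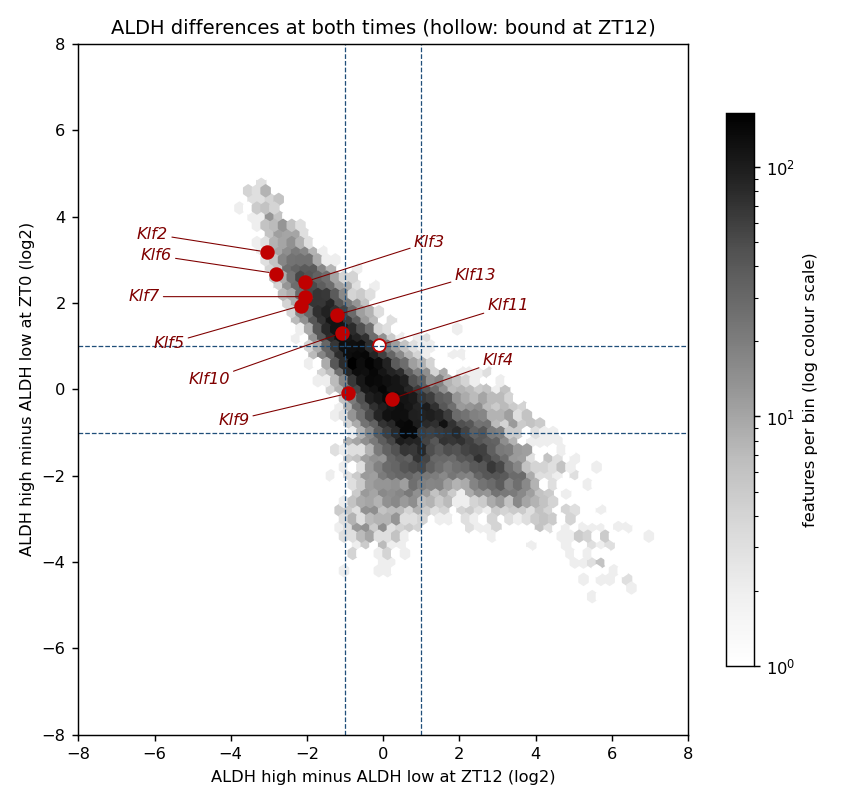
ALDH-high minus ALDH-low difference at ZT12 (horizontal, log2) and at ZT0 (vertical, log2), with the members in red over all features well above background on 4 arrays in grey, darker for more features per bin on a log colour scale. Dashed lines mark 2-fold, and Klf11 is hollow because its ZT12 value is a bound. In the upper left corner lie 7 members, with Klf2 at -3.05 and 3.18, while Klf4 and Klf9 lie near the centre.

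Read by time within a fraction, the same 4 arrays gave lower signal at ZT12 than at ZT0 in ALDH-high cells and higher signal at ZT12 than at ZT0 in ALDH-low cells. These differences share their arrays with those above and are no further evidence. In ALDH-high cells 7 members were at least 2-fold lower at ZT12 (18.9% of features) and 0 higher (31.8%), from -2.97 for Klf2 to -1.46 for Klf10. In ALDH-low cells 6 members were at least 2-fold higher at ZT12 (16.3% of features) and 0 lower (32.5%), from 3.26 for Klf2 to 1.28 for Klf5. Klf10 was just under 2-fold there (0.93), and Klf9 (0.59) and Klf11 (0.36) were further below it. Klf5 was the least symmetric of the 7, at -2.81 in ALDH-high cells and 1.28 in ALDH-low cells. Median scaling raised the ALDH-low count to 9 members, with 33.3% of features higher and 17.1% lower. The same scaling gave 29.1% of features lower and 19.1% higher in ALDH-high cells, 36.5% lower and 19.3% higher at ZT12, and 28.9% higher and 19.0% lower at ZT0. Scaling thus sets how many features count as higher or lower: the median ALDH difference of all features measured on both arrays was 0.22 at ZT12 and -0.30 at ZT0, and became -0.65 and 0.19 under median scaling. Relative to that median, which gives the same value under either scaling, Klf2 stood at -3.27 and 3.48, Klf10 at -1.31 and 1.61, and Klf4 at 0.01 and 0.08.

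No member passed a test of an ALDH difference shared by both times or of a time difference shared by both fractions. In an additive limma fit over all 23520 features, with Benjamini-Hochberg adjustment, 0 members and 0 features (0.0%) were called for ALDH, and 0 and 0 (0.0%) for time. At an unadjusted p under 0.05 there were 7 features for ALDH and 2 for time, none of them a member. Among the members the smallest unadjusted limma p was 0.743 for ALDH (Klf9, mean difference -0.51) and 0.529 for time (Klf11, -0.97), with an adjusted p of 1 after rounding. The fit used every signal as it stood, with no bounds. The Klf11 value of -0.97 thus rests in part on a ZT12 ALDH-high signal that was not well above background. What is left over in this fit is 1 degree of freedom, the gap between the ALDH differences at ZT12 and ZT0, and every feature received a standard error of 1.54 log2 units. These p-values set a mean difference against the size of that gap pooled over all features. They measure neither the spread of the gene itself nor the spread between tumours. For Klf2 the mean ALDH difference was 0.07, while the difference between times, at -6.23, went into that residual. Klf2 nevertheless had the same standard error as Klf4, where the difference between times was 0.45.

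Array position splits the arrays the same way as the members' pattern. The high pair of arrays, ZT0 ALDH-high and ZT12 ALDH-low, is position 1_2, and the low pair, ZT12 ALDH-high and ZT0 ALDH-low, is position 1_1. Within a position every member measured was under 2-fold. At position 1_1, ZT12 ALDH-high minus ZT0 ALDH-low ranged from -0.87 (Klf5) to 0.21 (Klf2) over the 9 members measured, with 0 past 2-fold, against 4.33% of features. At position 1_2, ZT0 ALDH-high minus ZT12 ALDH-low ranged from -0.68 (Klf9) to 0.67 (Klf5) over 10 members, again with 0 past 2-fold, against 15.7% of features. With so few members, counts of 0 beside these shares are no result about the family. ALDH arm and time both differ within a position, and the ALDH by time difference and the position cannot be told apart on these arrays. Nor can that difference be told apart from an exchange of labels between the ALDH fractions at one time or between the times in one fraction, so the direction of each ALDH and time difference above rests on the labels.

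**Figure D3:**
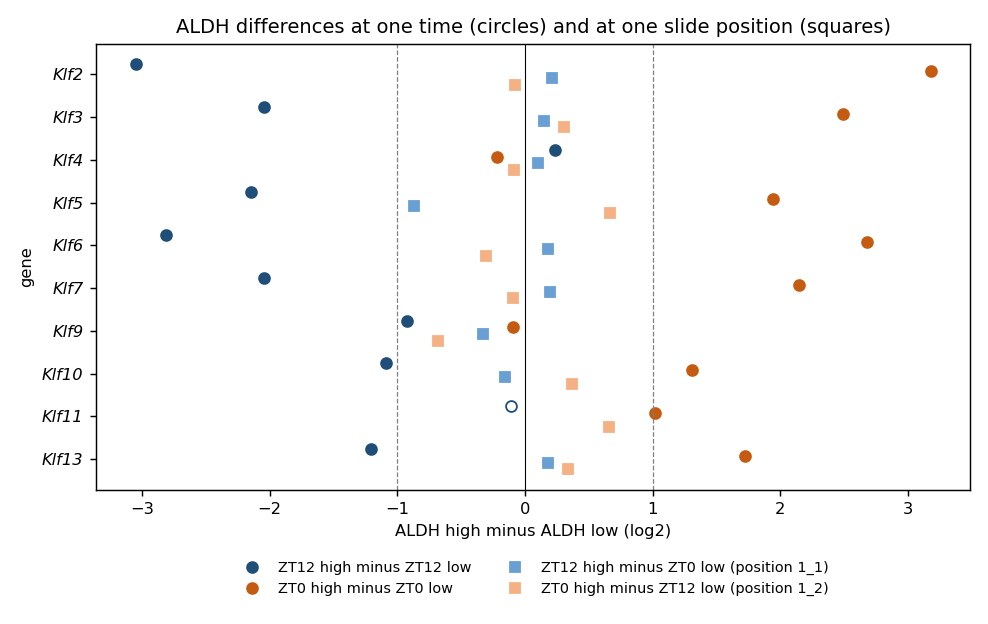
ALDH-high minus ALDH-low difference in log2 units for each member, taken at one time (circles, dark) and within one slide position (squares, pale), with dashed lines at 2-fold and a hollow circle for a bound. Circles spread from -3.05 to 3.18, and the squares lie between -0.87 and 0.67.

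Of the 7 other family genes on the array, 4 passed the filter. The pattern was found in 0 of the 4 (14.0% of all features) and the opposite one in 1, Klf15 (20.0% of all features). Counts over 4 genes are too small to set these genes apart from all features. Klf12, a CtBP-recruiting repressor, read 0.428 times the 75th percentile in ZT12 ALDH-high cells against 0.120 in ZT12 ALDH-low cells. At ZT0 it read 0.205 in ALDH-high cells against 0.410 in ALDH-low cells, so its signs ran against those of Klf3: it was 1.83 log2 units higher at ZT12 and just under 2-fold lower at ZT0. These Klf12 values came from 1 probe, designed to a clone sequence (chromosome 14, 100548495-100548554). The other 3 probes, designed to transcript records of the gene, were well above background on 0 arrays. Whether the clone probe read the Klf12 transcript is not known. Klf15, a metabolic regulator induced by glucocorticoids, was at least 2.59 log2 units higher in ALDH-high cells at ZT12, where the ALDH-low array was not well above background, and 3.37-fold lower at ZT0 (-1.75, and under 2-fold with normexp background correction at -0.77). Klf16, a SIN3A-recruiting repressor, read between 1.15 and 1.37 times on all 4 arrays (-0.13 and 0.22). Klf17 was well above background on 2 arrays, with -0.90 at ZT0, and Klf8 on 1 array. Klf1, the erythroid factor, and Klf14 were well above background on 0 arrays.

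Genes that act with the family were counted from lists chosen by function. Of 7 tested SP factors, which share the zinc finger domain and the GC box, 4 had the members' pattern and 0 the opposite: Sp1 (-1.57 at ZT12 and 1.77 at ZT0), Sp2 (-1.30 and 1.75), Sp3 (-1.56 and 1.68) and Sp4 (-1.40 and 1.97). Sp1, the ubiquitous GC box activator, read 1.37 times the 75th percentile in ZT12 ALDH-high cells and 4.06 in ZT12 ALDH-low cells, then 4.14 in ZT0 ALDH-high cells and 1.21 in ZT0 ALDH-low cells. Of 14 cofactors, 3 had the pattern and 0 the opposite: the corepressors Sin3a (-1.64 and 1.57) and Ncor1 (-1.92 and 2.14) and the acetyltransferase Ep300. Ep300 read 0.381 times the 75th percentile in ZT12 ALDH-high cells against 1.09 in ZT12 ALDH-low cells, and 1.62 in ZT0 ALDH-high cells against 0.405 in ZT0 ALDH-low cells. The CtBP genes Ctbp1 (-0.54 and 0.37) and Ctbp2 (-0.47 and 0.20), partners of Klf3, stayed under 2-fold. Both counts stand beside 14.0% of all features with the pattern and 20.0% with the opposite. The share of cofactors with the pattern (21.4%) is near that of all features, so their count is no result about the cofactors.

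Upstream regulators were mixed. Of 16, 7 had the pattern and 1 the opposite, against 14.0% and 20.0% of all features. In the ERK5 cascade that induces Klf2 and Klf4, the kinases Map3k3 (-2.62 and 2.95) and Mapk7 (-1.23 and 1.03) and the factor Mef2a (-1.04 and 1.27) had it, while Mef2c ran the other way (1.63 and -1.04). The others with it were Foxo3 (-2.28 and 2.85), which induces Klf2 in lymphocytes, the serum response factor Srf (-1.54 and 1.16), the glucocorticoid receptor Nr3c1 (-1.73 and 2.08) and Smad2 (-1.28 and 1.61), a mediator of TGF-beta. After quantile normalization 4 of the 16 had the pattern (13.8% of features). Mapk7 (-0.80 and 0.50), Mef2a (-0.64 and 0.79) and Srf (-1.36 and 0.87) had left it. Smad2 was under 2-fold at ZT12 with normexp background correction (-0.95) and at both times with the mean of probes (-0.92 and 0.74). Mef2c was past 2-fold at ZT0 by a small margin, and fell short of it there with normexp (-0.81), quantile normalization (by less than the rounding) and the mean of probes (-0.62), and at both times under median scaling (0.75 and -0.56). The clock genes Arntl (0.44 and -1.55) and Clock (0.57 and -1.50), which bind the E-box, did not have it. They were at least 2-fold lower in ALDH-high cells at ZT0 alone.

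Reported targets of the family went both ways. Of 24, 5 (20.8%) had the members' pattern and 3 (12.5%) the opposite, shares near the 14.0% and 20.0% of all features, so the counts are no result about the targets. Those with the opposite were targets of Klf2: the egress receptor S1pr1 (1.98 and -1.35), the interleukin receptor Il7r (1.72 and -1.87) and endothelial Nos3 (2.67 and -1.63). The cell cycle inhibitors Cdkn1a (-1.67 and 2.18), a target of Klf4 and Klf6, and Cdkn1b (-1.89 and 2.16) had the pattern. So did the clock repressors Per1 (-2.42 and 2.86) and Bhlhe40 (-1.44 and 1.22), the last of them under 2-fold at ZT0 after quantile normalization (0.69). Under median scaling the opposite count was 1 (Nos3), against 10.3% of features. With that scaling S1pr1 was under 2-fold at ZT0 (-0.87, and -0.82 with normexp) and Il7r at ZT12 (0.84).

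**Figure D4:**
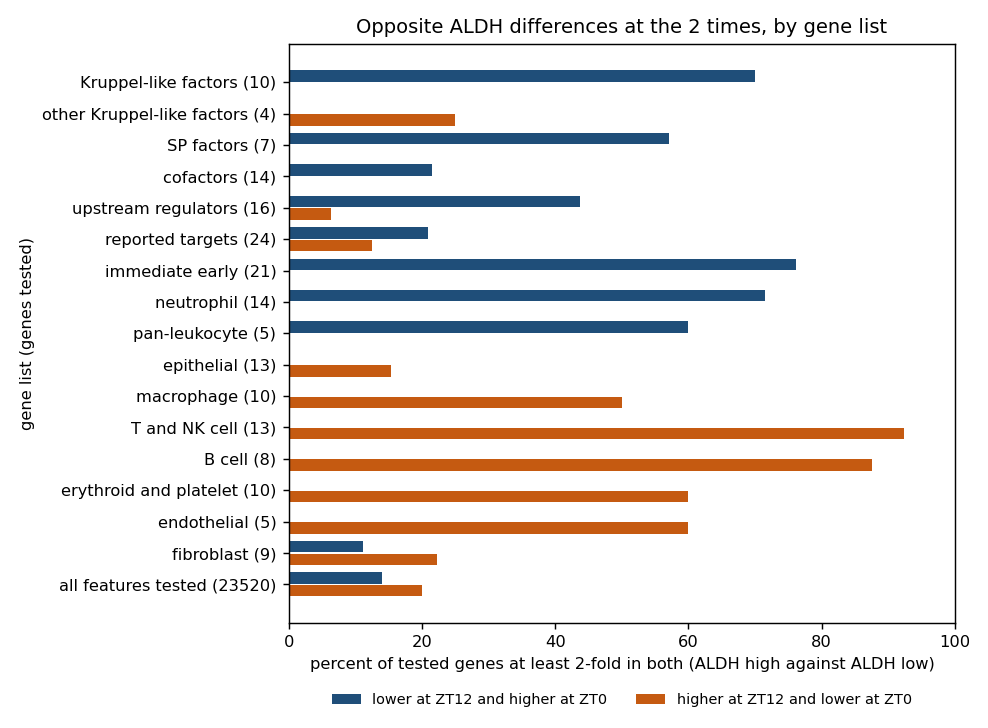
Percent of the tested genes in each list that were at least 2-fold lower in ALDH-high cells at ZT12 and higher at ZT0 (blue) or the opposite (orange), with the number of genes tested in brackets. The members (7 of 10 blue) stand beside immediate early genes (76.2%) and neutrophil markers (71.4%), T and NK cell markers are 92.3% orange, and all features are 14.0% blue and 20.0% orange.

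Other gene lists shared the pattern, which 14.0% of all features had, while 20.0% had the opposite. Of 21 immediate early genes, which serum and tissue dissociation induce, 16 had it and 0 the opposite, Egr1 (-3.75 and 4.13) and Fos (-2.36 and 3.02) among them. Their summed signal was 440 times the 75th percentile in ZT12 ALDH-high cells, 1944 in ZT12 ALDH-low cells, 2295 in ZT0 ALDH-high cells and 348 in ZT0 ALDH-low cells. The sum over the 10 members was 61.3 times in ZT12 ALDH-high cells, 315 in ZT12 ALDH-low cells, 289 in ZT0 ALDH-high cells and 55.9 in ZT0 ALDH-low cells. Of 14 neutrophil markers 10, such as Ly6g (-3.06 and 4.97), had the pattern and 0 the opposite. At ZT12 alone 10 of the 14 were at least 2-fold lower in ALDH-high cells (16.1% of features) and 2 higher (31.0%). The sum of the 14, to which S100a8 and S100a9 contribute, was higher in ALDH-high cells at both times. It was 3210 in ZT12 ALDH-high cells, 2481 in ZT12 ALDH-low cells, 4073 in ZT0 ALDH-high cells and 2340 in ZT0 ALDH-low cells. Of 5 pan-leukocyte genes 3 had it, Ptprc (CD45) at -2.35 and 3.09, with a sum of 158 in ZT12 ALDH-high cells, 390 in ZT12 ALDH-low cells, 595 in ZT0 ALDH-high cells and 120 in ZT0 ALDH-low cells. The part of these cells or of dissociation in the members' values was not tested.

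Markers of most other cells had few or no genes with the members' pattern. Over all features 14.0% had that pattern and 20.0% the opposite, and the epithelial and fibroblast shares of the opposite pattern are near the latter. Of 13 tested epithelial markers 0 had the members' pattern and 2 (15.4%) the opposite. At ZT0 alone 13 of the 13 were at least 2-fold lower in ALDH-high cells (31.2% of features). At ZT12 alone 2 were at least 2-fold higher in ALDH-high cells (31.0% of features) and 0 lower (16.1%). The sum of the epithelial markers was 96.7 in ZT12 ALDH-high cells, 87.7 in ZT12 ALDH-low cells, 12.6 in ZT0 ALDH-high cells and 199.8 in ZT0 ALDH-low cells. Elf3 was not well above background on any array. T and NK cell markers had the opposite pattern in 12 of 13, with a sum of 64.5 in ZT12 ALDH-high cells, 5.15 in ZT12 ALDH-low cells, 18.1 in ZT0 ALDH-high cells and 49.2 in ZT0 ALDH-low cells. So did 7 of 8 B cell markers, 6 of 10 erythroid and platelet markers, 5 of 10 macrophage markers and 3 of 5 endothelial markers, with 0 of each in the members' pattern. Fibroblast markers were split, with 1 in the pattern (11.1%) and 2 opposite (22.2%) of 9, shares near those of all features. Blk and the endothelial genes Tek, Tie1, Emcn and Cldn5 were well above background on 0 arrays.

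The features most like the 3 members of widest range were found by the root mean square difference of centred log2 values over the 4 arrays, among 12755 named features. Nearest to Klf2 were Trem1, a receptor of neutrophils and monocytes (0.05 log2), Syn2, a synapsin (0.06), and Klhl2, a ubiquitin ligase adaptor (0.07). Among the members compared, Klf6 was nearest to Klf2, at rank 53 (0.20). Klf3 followed at rank 489, and Klf4 was furthest, at rank 6865. Nearest to Klf6 were Arrdc3, an arrestin-like protein (0.05), Ccdc101 (0.08) and Clk1, a kinase of splicing factors (0.08). Nearest to Klf5 were Cdc25b, a cell cycle phosphatase (0.10), Map3k5, the stress kinase ASK1 (0.11), and Prr7 (0.11). The member nearest to Klf5 was Klf3, at rank 645.

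**Figure D5:**
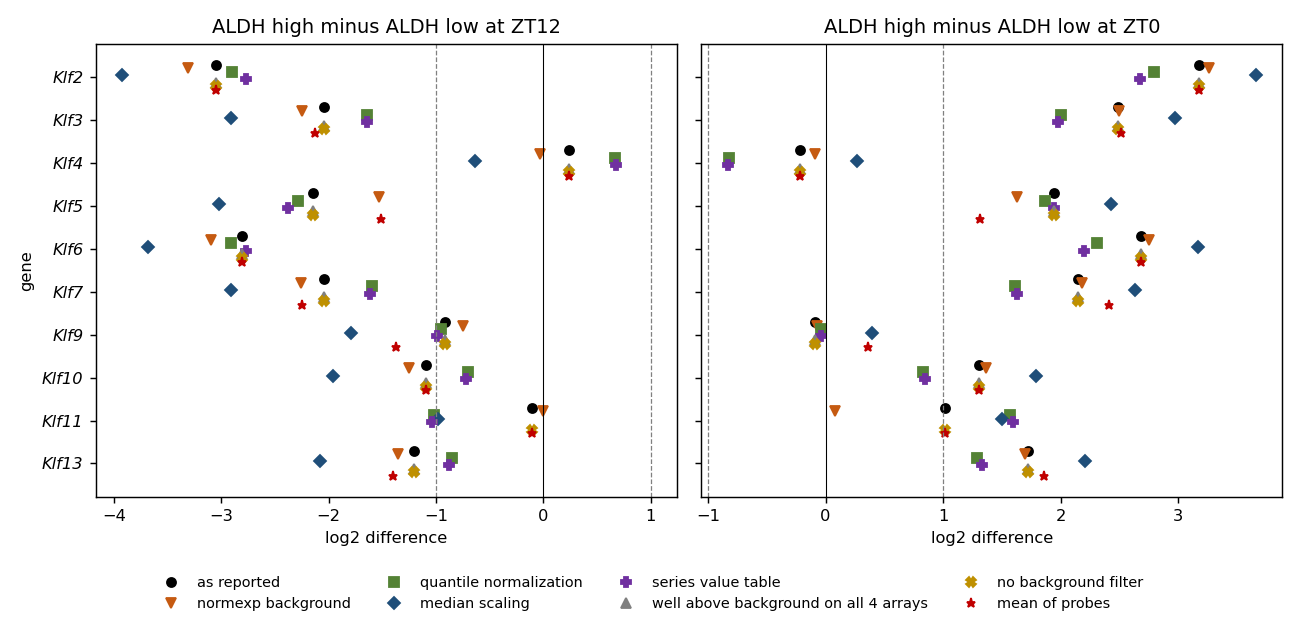
ALDH-high minus ALDH-low differences of the 10 members at ZT12 (left) and ZT0 (right) in log2 units under each way of processing, with dashed lines at 2-fold. Klf2, Klf3, Klf5, Klf6 and Klf7 stay past 2-fold at both times under all 8 ways shown. Klf9, Klf10, Klf11 and Klf13 cross the line, and Klf4 crosses 0. The ways are not independent: a change of filter leaves the values of the members it keeps as they were, and the series table is close to quantile normalization.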

How the data were processed

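RNA of 4 sorted fractions was amplified, labelled with Cy3 and hybridised to one-colour Agilent arrays, per the labels' protocols. Per the file headers, the scanner software was Agilent Feature Extraction 10.7.1.1 with a grid of build mm9, while the submitters' processing notes name version 9.5.1.1. Per the same headers, the deposited processed signal is a linear intensity from which background was subtracted and spatial trends were removed array by array, with no normalization between arrays. Flags for dim, saturated and outlier spots were used as the authors' software set them. The deposited series table also holds intensity values, whose 4 columns share a median of 28.3 and, once sorted, lie within 0.000559 log2 units of their common mean, as after quantile normalization, with no centring of genes, and each column ranks the probes as the processed signal of its own array does.

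The value of a probe was its log2 processed signal minus that of the array's 75th percentile over spots that are not controls. Outlier spots were left out, replicate spots were averaged, and each member probe had 1 spot. The filter kept 34574 of 56605 probes, those well above background on 2 or more of 4 arrays. The probe with the highest mean stood for a gene, and probe symbols are those of the array's design. A probe not well above background on one array has a bound: the bright value over the dim one, or over the lowest signal flagged well above background on the dim array where that is higher. Replicate spots had a median SD of at most 0.0448 log2 units over at least 288 probes, which measures precision within an array alone. Differences of at least 1 log2 unit were counted, beside the share of all features. limma 3.58.1 in R 4.3.3 (two-sided, Benjamini-Hochberg, threshold 0.05) fitted ALDH arm and time. The fit was also run on simulated data with independent noise and ALDH changes that were alike at both times. Those data held no ALDH by time difference, so the run cannot show how the fit performs on these arrays. Files were read with Python 3.11.15, pandas 2.3.3 and numpy 2.4.6, and plots drawn with matplotlib 3.10.9.

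The members and gene lists were chosen with earlier results of these data known. All member probes and all other KLFs are given. Genes of the SP, cofactor, upstream and target lists are named where they were past 2-fold in both ALDH contrasts, except 1 target that is not reported here. Ctbp1, Ctbp2, Arntl and Clock were named after their values were seen, as were the examples from the marker lists. Nearest features were the 3 with the smallest distance to each of 3 members. Alternatives were normexp background correction (offset 50), quantile or median scaling, the series table, a stricter filter or none, and the mean of a gene's probes. Gene structure in mm9 was not analysed here.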

Additional observations from a re-analysis of the deposited data

Results flagged for a closer look

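In 7 of the 10 members ALDH-high cells were at least 2-fold lower than ALDH-low cells at ZT12 and at least 2-fold higher at ZT0. That pattern was found in 14.0% of all features. Klf4 and Klf11 also had opposite signs at the 2 times, but both were under 2-fold at ZT12. The share of all features with opposite signs of any size was not counted. Each group had 1 array, and the difference between the times was not tested. The difference at ZT12 minus that at ZT0, in log2 units, was -6.23 for Klf2, -5.49 for Klf6, -4.53 for Klf3, -4.19 for Klf7, -4.09 for Klf5, -2.94 for Klf13 and -2.40 for Klf10. It was -1.13 for Klf11, where the ZT12 part is a bound, and 0.45 for Klf4, whose signs turn with median scaling. The position of the array on its slide splits the arrays the same way and cannot be told apart from it.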

How the results depend on the processing

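The number of members at least 2-fold lower at ZT12 and higher at ZT0 was 7 as reported and 6 or 7 under the 7 alternatives. It was 6 after quantile normalization and in the series table, where Klf10 and Klf13 left the count and Klf11 joined it (-1.02 and 1.57 after quantile normalization). The share of all features with this pattern was 14.0% as reported and between 8.87% and 25.6% under the alternatives. Under median scaling the pattern was found in 6 cofactors in place of 3, 8 targets in place of 5 and 5 pan-leukocyte genes in place of 3. The opposite pattern was found in 0 epithelial markers in place of 2, 1 endothelial marker in place of 3, and 0 fibroblast markers in place of 2. The shares of all features moved the same way, from 14.0% to 25.6% with the pattern and from 20.0% to 10.3% with the opposite. These changes are thus no result about the lists. Among SP factors 3 in place of 4 had the pattern with normexp background correction (Sp4 at -0.99 at ZT12, 12.1% of features). The count was also 3 with the mean of probes (Sp2 at -0.85 at ZT12, 12.7% of features). Normexp left 0 other KLFs with the opposite pattern in place of 1 (8.8% of features). Of 276 member differences under an alternative, 0 reversed a value past 2-fold, and 160 moved by more than 0.0634 log2 units, the replicate-spot SD carried to a difference of 2 arrays. A stricter filter or none could not move the value of a member that it kept, and the mean of probes could not move a member with 1 probe. The limma fits called 0 features under each alternative, including no term for time and array position in place of time, where 1915 features had an unadjusted p under 0.05. Without each array in turn (between 0 and 0 calls) the fit held no term for time and 1 arm had a single array, assumed to vary like the other. With 1 or 2 residual degrees of freedom these counts say nothing about stability. Dim probes, such as those of Klf11 and of the second Klf5 probe, limit what can be measured, and 4 arrays limit every comparison. The additive fit of ALDH arm and time already pairs the ALDH fractions by time, and no replicate number pairs arrays further, since each group holds 1 array.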
